A study of Mus musculus with 8 samples.

Results

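The 39 genes described here mark macrophages, neutrophils and mast cells, the innate immune cells of skin that arise from the myeloid branch of blood formation. They were taken from a deposited table of 24421 genes by symbol, and all 39 were found. By role, 6 are shared by myeloid cells or by all leukocytes, 11 are complement and scavenging genes of macrophages, 6 are sensing receptors of macrophages, 2 are enzymes of alternatively activated macrophages, 7 are neutrophil genes and 7 are mast cell genes. RNA was sequenced from cells sorted from the back skin of 4 C57BL/6J mice, every one of which carried Tyr:CreERT2 and the ROSA mTmG reporter. The reporter switches a cell from tdTomato at its membrane to EGFP once Cre recombinase has acted. The Cre here works after tamoxifen and is under the control of the tyrosinase gene, a gene of pigment cells. All mice received tamoxifen daily for 10 days from day 21, were shaved and depilated on day 50, and gave skin on day 54. Mice 1 and 2 were mock treated (no UV), and mice 3 and 4 received UVB at 150 mJ/cm2 for 3 days (UV). EGFP+ cells, labelled melanocytes, and tdTomato+ cells, labelled other skin cells, were sorted from each mouse, which gave 4 groups of 2 libraries: no UV EGFP, UV EGFP, no UV tdTomato and UV tdTomato. The immune cells of the skin are not an intended target of Tyr:CreERT2. By this design they should fall in the tdTomato+ population together with keratinocytes, fibroblasts and endothelium.

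Macrophages engulf dead cells and microbes, and those resident in skin make the C1q complement complex and carry scavenger and lectin receptors. Neutrophils enter skin from the blood during inflammation and carry their antimicrobial proteins in granules, most of which are made in the bone marrow before the cell leaves it. Mast cells live in the dermis and store proteases and histamine, which they release when the high-affinity IgE receptor is cross-linked. Ultraviolet light is known to bring myeloid cells into the skin and to reduce the number of Langerhans cells in the epidermis.

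Total reads per library ranged from 11186363 to 16711981. The number of genes with a read ranged from 11186 in UV EGFP replicate 2 to 17076 in no UV tdTomato replicate 2. Values are normalized reads, that is, a gene's reads over the size factor of its library, so 1 read is worth between 0.832 and 1.43 normalized reads. The sort matched its labels: all 8 melanocyte markers listed were higher in EGFP+ cells and all 8 keratinocyte markers listed were higher in tdTomato+ cells. Melanocyte markers were present in the tdTomato+ libraries as well, with a summed level of 5573 and 2653 without UV and 23287 and 44781 with UV. Mouse 1 differed from the others in X and Y linked genes: Xist had 477 and 1103 reads in its EGFP and tdTomato libraries and at most 4 in any other library, and Ddx3y had 2 and 8 reads there against 1071 to 1620 elsewhere. The no UV arm thus joined mouse 1 with a mouse rich in Y linked reads, and the UV arm held only mice rich in them. The part of this in the UV differences and in the gap between no UV replicates was not tested. UV EGFP replicate 2 had 0 reads for 31 of the 39 genes, the highest number among the 8 libraries. UV tdTomato replicate 1 was the highest of all 8 libraries for 27 of the 39 genes. In bulk RNA from sorted cells, fewer cells of a type and less RNA per cell cannot be told apart.

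**Figure D1:**
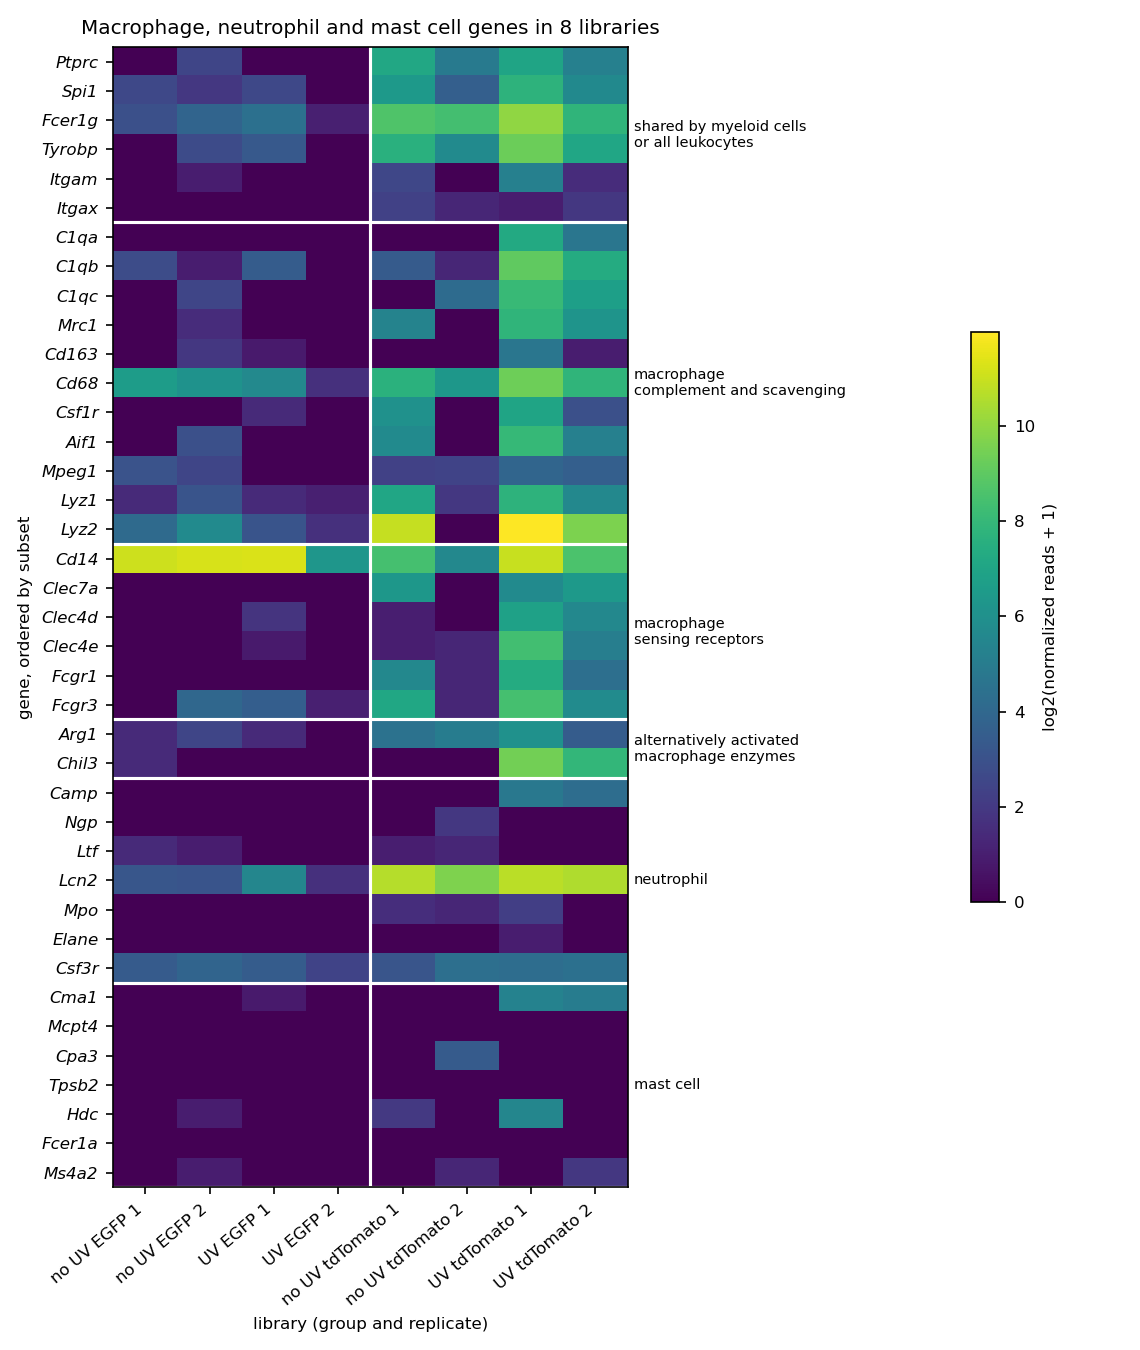
Log2(normalized reads + 1) of the 39 genes (rows, grouped by role between white lines) in the 8 libraries (columns, EGFP left and tdTomato right of the white line). Most rows are dark in the 4 EGFP libraries and brighter in the tdTomato libraries, with UV tdTomato replicate 1 the highest library for 27 genes, while Cd14 is bright in 3 of 4 EGFP libraries.

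By limma, some genes of each role were lower in EGFP+ than in tdTomato+ cells over all mice and none was higher. The only mast cell gene called, Cma1, and also C1qa and Camp had 0 reads without UV in both populations. Chil3 had 2 reads without UV, both in EGFP+ cells. The differences of these genes over all mice thus came from the UV mice. Cd14 had a higher mean in EGFP+ cells (1777 against 692 normalized reads, not called). Reads of C1qa, C1qb, C1qc, Clec4d, Clec4e and Chil3 came mainly from tdTomato+ cells of UV mice, and 3 mast cell genes had no reads in any library. Of the 39 genes, 36 had reads in some library and 35 were tested. The test was limma on log2(normalized reads + 1), with Benjamini-Hochberg adjustment over all 18070 genes that averaged at least 1 normalized read in some group, and a call was an adjusted p under 0.05. Differences are log2 units on that scale with a standard error (SE), which understates the change of low genes. Over all 4 mice 20 members were called lower in EGFP+ cells and 0 higher, where 19.2% of all genes tested were lower and 9.66% higher. Without UV 4 members were called lower and 0 higher, against a background of 12.5% lower and 6.67% higher. With UV 17 were called lower and 0 higher, against a background of 12.9% lower and 5.03% higher. The median difference of the 35 tested members was -3.43 for all mice together, -0.97 in those without UV and -4.94 in those with UV, while all genes tested had medians of -0.33, -0.27 and -0.27. Of the members, 12 had 0 reads in all 4 EGFP libraries and 27 had under 10 reads there in total.

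In tdTomato+ cells, UV against no UV gave 4 members called higher (C1qa, Chil3, Camp and Cma1) and 0 lower, where 0.349% of all genes tested were higher and 0.21% lower. The median UV change of the tested members there was 2.08, and that of all genes was -0.09. In EGFP+ cells 0 members passed limma in the same comparison, where 0.0166% of all genes tested were lower and 0.0% higher. There 1 member, Mpeg1, had an unadjusted p under 0.05, and edgeR and DESeq2 called 0 members as well. The difference between the UV change in EGFP+ cells and that in tdTomato+ cells passed limma for 0 members (background 0.00553% lower and 0.0% higher), with 11 members at an unadjusted p under 0.05, and edgeR and DESeq2 each called 1, Chil3. A UV change called in tdTomato+ cells was therefore not shown by limma to differ from that in EGFP+ cells. The counts rested on single libraries. A fit without 1 library leaves 1 library in its group, and most such fits also called fewer of all genes. Without UV tdTomato replicate 1, fewer members were called over all mice, with UV and for UV in tdTomato+ cells. Fewer of all genes were called in these comparisons too. Without no UV tdTomato replicate 1, which is from mouse 1, more members were called for UV in tdTomato+ cells, some of them lower. The same held without both libraries of mouse 1. In both fits far more of all genes were called as well, most of them lower. When either no UV EGFP library was left out, fewer members were called over all mice and without UV. When UV EGFP replicate 2 was left out, fewer were called over all mice and with UV. Each of these fits also called fewer of all genes in the same comparisons.

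**Figure D2:**
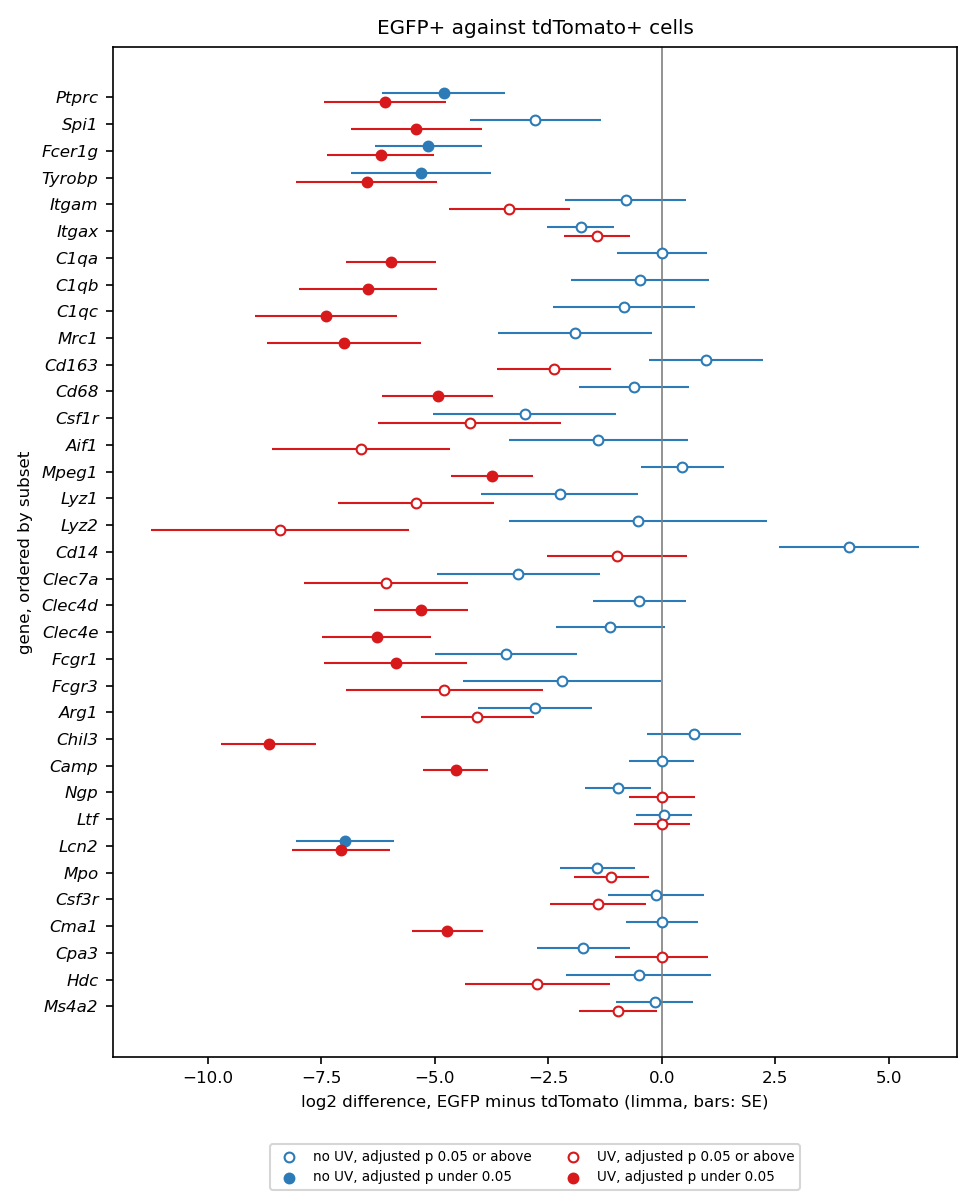
Log2 difference of EGFP+ minus tdTomato+ cells for the 35 tested genes, in mice without UV (blue) and with UV (red); bars are 1 SE from limma and filled points have an adjusted p under 0.05. Filled points number 4 without UV and 17 with UV, all left of 0, and the UV points of most macrophage genes lie further left than the points without UV.

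Among the genes shared by myeloid cells or all leukocytes, 5 of 6 were lower in EGFP+ cells over all mice, and none of the 6 passed the test of UV in tdTomato+ cells. In sentences of values below, replicates 1 and 2 of a group stand in that order. Fcer1g, the signalling gamma chain of Fc receptors, had 410 and 333 normalized reads in tdTomato+ cells without UV and 1014 and 230 with UV. In EGFP+ cells it had 6.65 and 13.3 without UV and 20.1 and 1.08 with UV. Every tdTomato library was above every EGFP library, and the UV tdTomato libraries lay on both sides of those without UV. Fcer1g stood at -5.67 ± 0.83 (SE) in EGFP+ against tdTomato+ cells over all mice (adjusted p = 0.0013), at -5.14 ± 1.18 without UV (adjusted p = 0.0172) and at -6.19 ± 1.18 with UV (adjusted p = 0.0085). Its UV change in tdTomato+ cells was 0.39 ± 1.18 (adjusted p = 0.927) and turned to -0.68 without UV tdTomato replicate 1.

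Tyrobp, the adaptor DAP12 that pairs with activating myeloid receptors, had 193 and 52.8 normalized reads in tdTomato+ cells without UV and 624 and 134 with UV. Its EGFP+ values were 0 and 5.70 without UV and 9.23 and 0 with UV, below every tdTomato library. Tyrobp stood at -5.90 ± 1.09 over all mice (adjusted p = 0.0042). Ptprc, which encodes the leukocyte antigen CD45, had 145 and 29.97 in tdTomato+ cells without UV and 126 and 36.2 with UV, and in EGFP+ cells 4.75 in no UV replicate 2 and 0 in the other libraries. The level of Ptprc in tdTomato+ cells was thus nearly the same in both arms, with a wide gap between the replicates of each arm. Ptprc stood at -5.45 ± 0.96 over all mice (adjusted p = 0.0032), and its UV change in tdTomato+ cells was 0.03 ± 1.35 (adjusted p = 1.000). That UV change was -0.12 with edgeR, -0.11 with DESeq2, -1.09 without no UV tdTomato replicate 2 and -0.85 without UV tdTomato replicate 1.

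Spi1, the transcription factor PU.1 that directs the myeloid lineage, had 88.0 and 11.4 normalized reads in tdTomato+ cells without UV and 213 and 50.1 with UV. In EGFP+ cells the values of Spi1 were 4.99, 2.85, 5.03 and 0. It stood at -4.10 ± 1.02 over all mice (adjusted p = 0.0169). Itgam, the integrin chain CD11b of neutrophils and monocytes, had 4.89 and 0 in tdTomato+ cells without UV and 35.7 and 1.85 with UV, and 0.951 in 1 EGFP library and 0 in the other 3. Nearly all of its reads came from UV tdTomato replicate 1, and it passed in no comparison. Itgax, the integrin chain CD11c of dendritic cells and some macrophages, had 0.916 to 3.91 in the tdTomato libraries and 0 in all EGFP libraries. Its 9 reads make it at least 3.37-fold lower in EGFP+ cells, counted against 3 reads over the EGFP libraries. The limma call of Itgax (adjusted p = 0.0482) was lost with mouse as a block (adjusted p = 0.0787) and with edgeR (adjusted p = 0.179).

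In this role the calls over all mice held in all 8 fits that each left out 1 library for Ptprc (adjusted p up to 0.0299) and Fcer1g (up to 0.0382). Tyrobp lost its call in 2 of them (at most 0.0633, reached when no UV tdTomato replicate 1 was left out), Spi1 in 5 (at most 0.0968, reached when UV tdTomato replicate 1 was left out) and Itgax in 5 (at most 0.104, reached when UV EGFP replicate 1 was left out). Without UV the calls were Ptprc (-4.81 ± 1.35, adjusted p = 0.0397), Fcer1g and Tyrobp (-5.30 ± 1.55, adjusted p = 0.0452). Each of these was lost in 6 of 8 fits, with the highest adjusted p without no UV EGFP replicate 1 (0.207, 0.163 and 0.283), and that of Ptprc also with mouse as a block (0.0715). With UV the 4 calls were Ptprc (-6.10 ± 1.35, adjusted p = 0.0167), Spi1 (-5.41 ± 1.44, 0.0345), Fcer1g and Tyrobp (-6.51 ± 1.55, 0.0222), lost in 4, 7, 5 and 7 of 8 fits with the highest adjusted p (0.139, 0.241, 0.136 and 0.212) without UV tdTomato replicate 1.

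The complement and scavenging genes of macrophages were the largest role. Of 11 genes, 6 were lower in EGFP+ cells over all mice and 6 with UV, 0 without UV, and 1 was higher with UV in tdTomato+ cells. The summed level of the 11 genes in tdTomato+ cells was 2411 and 104 without UV and 6466 and 1468 with UV, and in EGFP+ cells 129, 148, 70.5 and 5.39. C1qa, C1qb and C1qc encode the A, B and C chains of C1q, the recognition molecule of the classical complement pathway, and lie side by side on the minus strand of mouse chromosome 4. In the mm10 assembly, by GENCODE M21 gene models, C1qb spans bases 136880129 to 136886187, C1qc 136889804 to 136893065 and C1qa 136895917 to 136898803.

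C1qa had 0 reads in both no UV tdTomato libraries and in all 4 EGFP libraries, and 151 and 25.0 normalized reads in the UV tdTomato libraries. It was thus at least 50.8-fold higher with UV in tdTomato+ cells, counted against 3 reads over the no UV group. The limma change was 5.98 ± 0.99 (adjusted p = 0.0476). C1qb had 9.78 and 1.43 in tdTomato+ cells without UV and 527 and 164 with UV, and 5.82, 0.951, 10.1 and 0 in EGFP+ cells. C1qc had 0 and 17.1 without UV and 268 and 106 with UV, and 4.75 in 1 EGFP library and 0 in the others. For all 3 chains both UV tdTomato libraries were above all 6 other libraries. The UV change in tdTomato+ cells of C1qb was 5.85 ± 1.52 (adjusted p = 0.157) and that of C1qc 5.31 ± 1.56 (adjusted p = 0.195). These did not pass limma, and DESeq2 called C1qb (adjusted p = 0.000676) and C1qa (adjusted p = 0.0306), whereas edgeR called none of the 3 chains (adjusted p = 0.111 for C1qa). The limma call of C1qa was lost in all 8 fits without 1 library, most of which called few or none of all genes in this comparison.

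EGFP+ cells of UV mice had less of all 3 chains than tdTomato+ cells of the same mice. C1qa was at least 62.5-fold lower and C1qc at least 132-fold lower, each with 0 reads in the UV EGFP libraries. The limma differences with UV were -5.98 ± 0.99 for C1qa (adjusted p = 0.0046), -6.47 ± 1.52 for C1qb (adjusted p = 0.0211) and -7.40 ± 1.56 for C1qc (adjusted p = 0.0135). In fits without 1 library the difference was -7.25 to -4.70 for C1qa, -8.21 to -4.74 for C1qb and -8.07 to -6.74 for C1qc. C1qa had 0 reads in every library outside the UV tdTomato group and so no spread there. These fits therefore cannot show its call to be more stable than those of C1qb and C1qc.

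Mrc1, the mannose receptor CD206, and Cd163, the haptoglobin and hemoglobin scavenger receptor, mark resident macrophages. Mrc1 had 40.1 and 0 normalized reads in tdTomato+ cells without UV and 226 and 71.4 with UV, and 1.90 in 1 EGFP library and 0 in the other 3. It stood at -7.00 ± 1.71 in EGFP+ cells with UV (adjusted p = 0.0245; at least 106-fold lower by reads), and the call was lost in 5 of 8 fits without 1 library (at most 0.2, reached when UV tdTomato replicate 1 was left out). Cd163 had 0 and 0 in tdTomato+ cells without UV and 24.7 and 0.927 with UV. Of the 28 tdTomato reads of Cd163, 27 came from UV tdTomato replicate 1, and it passed in no comparison.

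Cd68, a glycoprotein of lysosomes that is abundant in macrophages, was the complement and scavenging gene with the highest level per length in EGFP+ cells, at 42.9 normalized reads per kb of exon. It had 97.3 and 67.5 in EGFP+ cells without UV and 48.7 and 2.16 with UV, and in tdTomato+ cells 197 and 78.5 without UV and 651 and 226 with UV. The EGFP and tdTomato libraries overlapped without UV and did not overlap with UV. The difference was -0.61 ± 1.22 without UV (adjusted p = 0.773) and -4.94 ± 1.22 with UV (adjusted p = 0.0257). UV moved it by -2.71 ± 1.22 in EGFP+ cells (adjusted p = 0.487) and by 1.62 ± 1.22 in tdTomato+ cells (adjusted p = 0.592), and the difference of these changes, -4.33 ± 1.72, did not pass (adjusted p = 0.463). Without no UV tdTomato replicate 1, the log2 difference of Cd68 without UV changed sign, to 0.046 (adjusted p = 1.000). Its call with UV was lost in 7 of 8 fits without 1 library (at most 0.251, reached when UV tdTomato replicate 1 was left out).

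Lyz2, the lysozyme M gene of macrophages and neutrophils, had the highest level per length of the 39 genes in UV tdTomato cells, at 1816 normalized reads per kb of exon. Fcer1g followed at 712 per kb, Cd14 at 685, Lcn2 at 613 and Tyrobp at 569, and the replicates of Lyz2, Fcer1g, Cd14 and Tyrobp differed by more than these gaps. Lyz2 had 1910 normalized reads in no UV tdTomato replicate 1 and 0 in replicate 2, and 4006 and 774 with UV. In EGFP+ cells the values were 16.6, 51.3, 7.55 and 2.16. No limma test of Lyz2 passed: it stood at -8.41 ± 2.84 in EGFP+ cells with UV (adjusted p = 0.0782) and at 5.33 ± 2.84 for UV in tdTomato+ cells (adjusted p = 0.483). Without no UV tdTomato replicate 2 the UV change was -0.12. The count models called Lyz2 lower in EGFP+ cells with UV (edgeR adjusted p = 0.00268, DESeq2 adjusted p = 0.00281).

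Lyz1, the lysozyme P gene, lies next to Lyz2 on chromosome 10 (bases 117287797 to 117292868, minus strand, against 117277331 to 117282321 for Lyz2). The start of both coding sequences is shown because reads cannot always be told apart between them. The capitals mark the 7 bases that differ among the 90 shown, taken from GENCODE M21 transcripts, 5′ to 3′.
Lyz1: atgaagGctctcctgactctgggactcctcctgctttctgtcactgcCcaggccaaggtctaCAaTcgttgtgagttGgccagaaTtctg
Lyz2: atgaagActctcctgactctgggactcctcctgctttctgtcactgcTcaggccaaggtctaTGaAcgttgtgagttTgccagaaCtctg
Each coding sequence has 447 bases, and 95.1% of positions were identical. Of all 50-base windows of the Lyz2 transcript, 15.4% were also found in Lyz1, and the longest stretch shared by the transcripts was 118 bases. Lyz1 had 134 and 2.85 normalized reads in tdTomato+ cells without UV and 213 and 46.4 with UV, and 1.66, 7.61, 1.68 and 1.08 in EGFP+ cells, so it was low and high in the same libraries as Lyz2. The limma call of Lyz1 over all mice (-3.83 ± 1.22, adjusted p = 0.046) was lost with mouse as a block (0.0577) and in 7 of 8 fits without 1 library (at most 0.198, reached when no UV EGFP replicate 1 was left out). The split of reads between Lyz1 and Lyz2 is uncertain.

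Csf1r, the receptor for the macrophage growth factors CSF1 and IL-34, had 64.6 and 0 normalized reads in tdTomato+ cells without UV and 125 and 6.49 with UV, and 1.68 in 1 EGFP library and 0 in the other 3. Aif1, the actin-binding protein IBA1, had 51.8 and 0 without UV and 261 and 36.2 with UV in tdTomato+ cells, and 6.66 in 1 EGFP library and 0 in the others. Both were high in replicate 1 of each tdTomato group and listed at 0 in no UV tdTomato replicate 2, as Lyz2 and Mrc1 were. Neither passed limma in any comparison. Mpeg1, the pore-forming protein perforin-2, was low everywhere and had a different order. It had 7.49 and 4.75 in EGFP+ cells without UV and 0 and 0 with UV, and 3.91 and 4.28 in tdTomato+ cells without UV and 13.7 and 11.1 with UV. Without UV both EGFP libraries were above both tdTomato libraries, and with UV both were below. Mpeg1 stood at -3.74 ± 0.91 with UV (adjusted p = 0.0244), which was lost with mouse as a block (0.0568), with edgeR (0.119) and with DESeq2 (0.0592), and without UV EGFP replicate 2 or UV tdTomato replicate 1 (up to 0.0713). The difference of its UV changes was -4.20 ± 1.29 (adjusted p = 0.372).

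Over all mice the calls in this role were C1qa (-2.99 ± 0.70, adjusted p = 0.013), C1qb (-3.48 ± 1.08, 0.0413), C1qc (-4.12 ± 1.10, 0.0233), Mrc1 (-4.46 ± 1.21, 0.0242), Cd68 (-2.78 ± 0.86, 0.042) and Lyz1. Each was lost in 3 to 7 of the 8 fits without 1 library. The highest adjusted p were 0.0587 for C1qa (without no UV EGFP replicate 2), 0.173 for C1qb and 0.224 for Cd68 (both without no UV tdTomato replicate 1), and 0.127 for C1qc and 0.141 for Mrc1 (both without no UV EGFP replicate 1). The call of C1qa was also lost with edgeR (1.000) and DESeq2 (0.0511), and that of C1qc with DESeq2 (0.0591).

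The sensing receptors of macrophages included the member with the highest level per length in EGFP+ cells, at 1026 normalized reads per kb of exon. Cd14, the co-receptor that delivers bacterial lipopolysaccharide to TLR4, had 2123 and 2397 normalized reads in EGFP+ cells without UV and 2511 and 77.6 with UV. In tdTomato+ cells it had 345 and 47.1 without UV and 1987 and 388 with UV. Without UV both EGFP libraries were above both tdTomato libraries. With UV the groups overlapped, because UV EGFP replicate 2 was the lowest and UV EGFP replicate 1 the highest of the 4. The difference was 4.13 ± 1.54 without UV (adjusted p = 0.103), and it passed with mouse as a block (adjusted p = 0.0133) and with edgeR (0.0322) but not with DESeq2 (0.0969). With UV it was -0.98 ± 1.54 (adjusted p = 0.746) and took the other sign with edgeR (0.17), with DESeq2 (0.12), without UV EGFP replicate 2 (1.52) and without UV tdTomato replicate 1 (0.19).

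The UV change of Cd14 passed in neither population. It was 2.77 ± 1.54 in tdTomato+ cells (adjusted p = 0.505), where both UV libraries were above both without UV. In EGFP+ cells it was -2.34 ± 1.54 (adjusted p = 0.63), and 0.15 without UV EGFP replicate 2. The difference of the UV changes was -5.11 ± 2.17 (adjusted p = 0.488). Melanocyte markers were present at a summed level of 570955 and 619487 in UV EGFP replicates 1 and 2, so the low Cd14 of replicate 2 stood beside a high level of melanocyte markers.

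**Figure D3:**
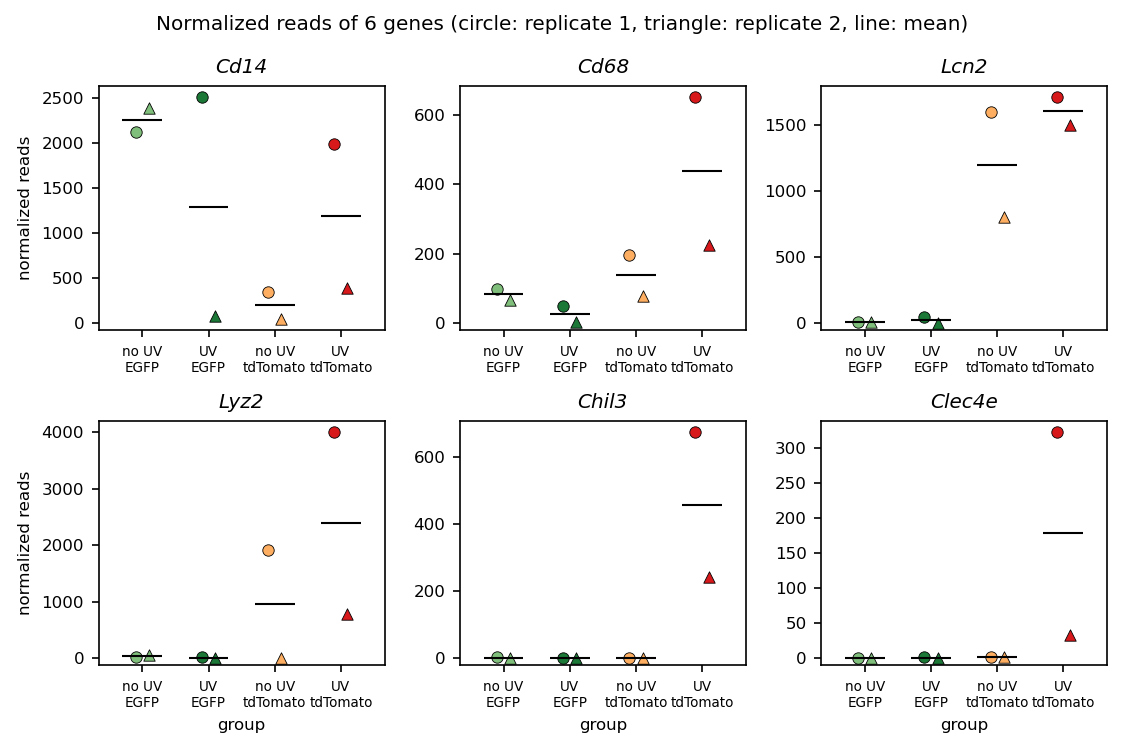
Normalized reads (linear axes) of 6 genes in the 4 groups; circles are replicate 1, triangles replicate 2 and lines group means. Cd14 is at 2123 to 2511 in 3 EGFP libraries and at 77.6 in UV EGFP replicate 2, Lcn2 is at 804 or more in all 4 tdTomato libraries, and Chil3 and Clec4e are at 33.4 or more in both UV tdTomato libraries and at 1.66 or less elsewhere.

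The other sensing receptors were close to 0 in EGFP+ cells. Clec4d and Clec4e, the C-type lectins MCL and Mincle that recognise mycobacterial glycolipids, are neighbours on chromosome 6. In mm10 Clec4d spans 123262111 to 123275265 on the plus strand and Clec4e 123281789 to 123289870 on the minus strand. Clec4e had 0.978 and 1.43 in tdTomato+ cells without UV and 323 and 33.4 with UV, and 1 read in all EGFP libraries together. Clec4d had 0.978 and 0 without UV and 113 and 47.3 with UV, and 3 reads in the EGFP libraries. Both UV tdTomato libraries were far above the other 6 for each gene. By reads the ratio of UV to no UV in tdTomato+ cells was 154 for Clec4e (95% interval 42.5 to 1280) and 138 for Clec4d (24.5 to 5489). These intervals cover counting error only. The limma changes were 5.59 ± 1.20 (adjusted p = 0.0982) and 5.72 ± 1.03 (adjusted p = 0.0616), and DESeq2 called both (adjusted p = 0.0018 and 0.0391) while edgeR called neither (0.0615 and 0.164).

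In EGFP+ against tdTomato+ cells with UV, Clec4e stood at -6.28 ± 1.20 (adjusted p = 0.0087) and Clec4d at -5.30 ± 1.03 (adjusted p = 0.0094). Each of these failed in 2 of the 8 fits that left out a library (at most 0.0611 for Clec4e, reached when UV EGFP replicate 2 was left out, and 0.0644 for Clec4d, without UV tdTomato replicate 1), and that of Clec4d with edgeR (0.0589). Clec7a, the beta-glucan receptor Dectin-1, had 79.2 and 0 in tdTomato+ cells without UV and 52.2 and 84.4 with UV, and 0 in all EGFP libraries. Of the tdTomato libraries, 3 lay between 52.2 and 84.4 and no UV tdTomato replicate 2 was at 0. Clec7a was at least 85.8-fold lower in EGFP+ cells over all mice by reads (limma -4.62 ± 1.27, adjusted p = 0.026). With UV it did not pass limma (-6.08 ± 1.80, adjusted p = 0.0503) but passed with mouse as a block (0.0424).

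Fcgr1, the high-affinity IgG receptor CD64, had 46.9 and 1.43 normalized reads in tdTomato+ cells without UV and 165 and 19.5 with UV, and 0 in all EGFP libraries. Replicate 1 was the higher library in both arms. It stood at -4.65 ± 1.11 over all mice (adjusted p = 0.0141) and at -5.87 ± 1.57 with UV (adjusted p = 0.0352). Fcgr3, the low-affinity IgG receptor CD16, had 140 and 1.43 without UV and 351 and 52.9 with UV in tdTomato+ cells, and 0, 15.2, 10.9 and 1.08 in EGFP+ cells. Fcgr3 passed in no comparison. Over all mice 4 of the 6 sensing receptors were lower in EGFP+ cells, Clec7a, Fcgr1, Clec4d (-2.90 ± 0.73, adjusted p = 0.0176) and Clec4e (-3.71 ± 0.85, adjusted p = 0.0116). Each of the 4 was lost in 3 to 5 of 8 fits without 1 library, at most at 0.136 (Clec7a, without no UV EGFP replicate 1), and Clec4d also with edgeR (0.101) and DESeq2 (0.0524). The call of Fcgr1 with UV was lost in 6 (at most 0.245, reached when UV tdTomato replicate 1 was left out).

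The enzymes of alternatively activated macrophages differed from each other. Chil3 encodes Ym1, a chitinase-like protein of alternatively activated macrophages that some neutrophils also make, and Arg1 encodes arginase 1, which turns arginine into ornithine. Chil3 had 0 reads in both no UV tdTomato libraries and 675 and 242 normalized reads with UV, and in EGFP+ cells 1.66 in no UV replicate 1 and 0 in the other 3 libraries. In tdTomato+ cells Chil3 was at least 264-fold higher with UV, with 998 reads against 0 (limma 8.66 ± 1.04, adjusted p = 0.0211). Both edgeR (adjusted p = 0.00178) and DESeq2 (adjusted p = 2.84e-08) called it too. With UV it was at least 325-fold lower in EGFP+ than in tdTomato+ cells (limma -8.66 ± 1.04, adjusted p = 0.0011). The difference between its UV changes in EGFP+ and tdTomato+ cells was -9.37 ± 1.47 (limma adjusted p = 0.162), and -14.92 with edgeR (adjusted p = 0.0463) and -13.36 with DESeq2 (adjusted p = 0.000137).

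Leaving out 1 library at a time, the call of Chil3 in tdTomato+ cells was lost in 6 of 8 fits. Most of those 6 called few or none of all genes in this comparison. The call stayed without UV EGFP replicate 1 and without no UV tdTomato replicate 1. The Chil3 change itself was 7.92 to 9.40 in all 8. The Chil3 promoter is shown because this gene had the largest called UV change among the members. The gene spans 106147554 to 106167564 on the minus strand of chromosome 3 in mm10, and the 250 bases before its start in RefSeq (GRCm38.p6, chr3:106167565-106167814, minus strand, 5′ to 3′) read as follows. The capitals mark TTATCT, the reverse complement of the GATA core AGATAA, 122 to 117 bases before the start, and ACTTCCT, the reverse complement of the PU.1 core AGGAAGT, 60 to 54 bases before it.

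Chil3 promoter: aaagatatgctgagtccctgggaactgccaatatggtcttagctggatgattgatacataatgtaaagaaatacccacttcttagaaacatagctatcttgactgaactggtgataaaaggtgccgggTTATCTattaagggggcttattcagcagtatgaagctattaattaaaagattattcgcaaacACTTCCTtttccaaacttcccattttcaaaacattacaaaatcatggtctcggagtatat

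Arg1 had 21.5 and 31.4 normalized reads in tdTomato+ cells without UV and 66.0 and 10.2 with UV, and 1.66, 4.75, 1.68 and 0 in EGFP+ cells. The UV tdTomato libraries lay on both sides of those without UV. Arg1 was lower in EGFP+ cells over all mice (-3.43 ± 0.89, adjusted p = 0.02), a call lost in 6 of 8 fits without 1 library (at most 0.0842, reached when no UV EGFP replicate 1 was left out). Its UV change in tdTomato+ cells was 0.02 ± 1.25 (adjusted p = 1.000).

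**Figure D4:**
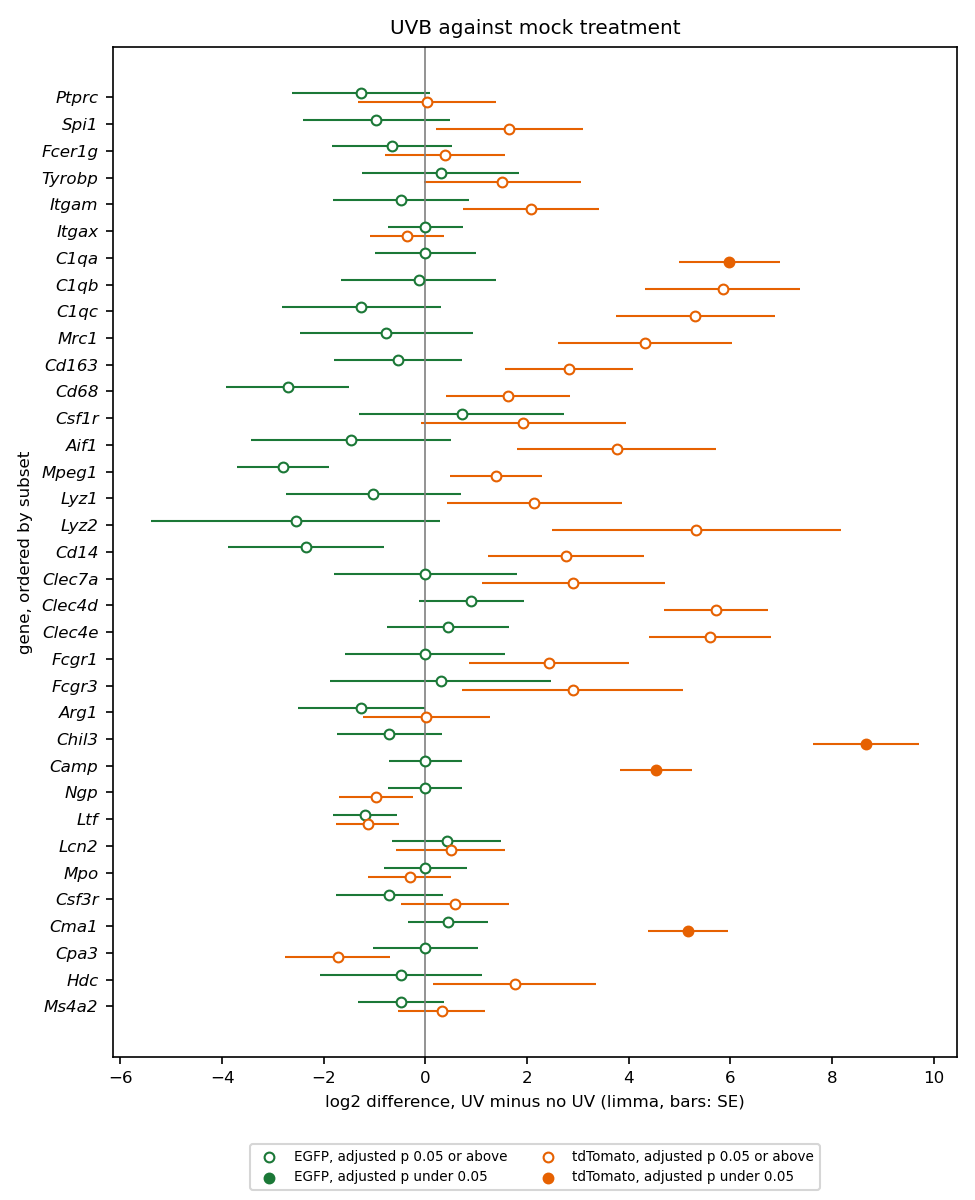
Log2 difference of UV minus no UV for the 35 tested genes, in EGFP+ cells (green) and tdTomato+ cells (orange); bars are 1 SE from limma and filled points have an adjusted p under 0.05. The 4 filled points, C1qa, Chil3, Camp and Cma1, are all in tdTomato+ cells at 4.54 to 8.66, and no point in EGFP+ cells is filled.

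The neutrophil genes split into 1 abundant gene and 6 that were low or absent. Lcn2 encodes lipocalin-2, which withholds iron from bacteria and is made by neutrophils and also by epithelial cells. It had 1597 and 804 normalized reads in tdTomato+ cells without UV and 1712 and 1502 with UV, and 8.32, 7.61, 44.5 and 2.16 in EGFP+ cells. Every tdTomato library was far above every EGFP library, and the UV libraries lay on both sides of no UV replicate 1. Lcn2 stood at -7.03 ± 0.76 over all mice (adjusted p = 0.000255), the largest difference of the 39 genes called in that comparison. The difference was -6.98 ± 1.07 without UV (adjusted p = 0.00296) and -7.07 ± 1.07 with UV (adjusted p = 0.00308), and the UV change in tdTomato+ cells was 0.50 ± 1.07 (adjusted p = 0.881). The call over all mice held in all 8 fits without 1 library (up to 0.0199). That without UV was lost in 4 (at most 0.0801, reached when no UV tdTomato replicate 1 was left out) and that with UV in 3 (at most 0.0811, reached when UV tdTomato replicate 1 was left out).

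Camp, the cathelicidin antimicrobial peptide stored in the specific granules of neutrophils, had 26.6 and 18.5 normalized reads in the UV tdTomato libraries and 0 in the other 6. In tdTomato+ cells it was at least 13.0-fold higher with UV (limma 4.54 ± 0.72, adjusted p = 0.0391). With UV it was at least 16.0-fold lower in EGFP+ cells (limma -4.54 ± 0.72, adjusted p = 0.0037). The 49 reads of Camp passed neither count model in tdTomato+ cells (edgeR adjusted p = 0.371, and DESeq2 gave no adjusted p). Its limma call of UV was lost in 7 of 8 fits without 1 library, most of which called few or none of all genes in this comparison. Camp is at 109847379 to 109849617 on the minus strand of chromosome 9 in mm10.

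The other granule genes were at the limit of detection. Ngp, the neutrophilic granule protein, had 2 reads in no UV tdTomato replicate 2 and 0 elsewhere, and Ltf, lactotransferrin, had 3 reads in EGFP+ and 2 in tdTomato+ cells, all without UV. Mpo, the myeloperoxidase of primary granules, had 7 reads in tdTomato+ cells, 3 without UV and 4 with UV, and Elane, neutrophil elastase, had 1 read in UV tdTomato replicate 1. Csf3r, the receptor for the neutrophil growth factor G-CSF, was low in every library. It had 9.98, 13.3, 10.1 and 4.31 in EGFP+ cells and 7.82, 19.98, 18.3 and 20.4 in tdTomato+ cells. The EGFP and tdTomato libraries of Csf3r overlapped, and it passed in no comparison. Over all mice, Camp (-2.27 ± 0.51, adjusted p = 0.0104) and Lcn2 were the 2 called genes of this role. The call of Camp over all mice was lost with edgeR (1.000) and DESeq2 (0.382), and that with UV with edgeR (0.116) and DESeq2 (0.238).

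The mast cell genes gave reads for a chymase and few others. Cma1, mast cell protease 5, had 38.5 and 31.5 normalized reads in the UV tdTomato libraries, 0 in both no UV tdTomato libraries, and 1 read in all EGFP libraries. In tdTomato+ cells it was at least 20.1-fold higher with UV (limma 5.16 ± 0.79, adjusted p = 0.0374). The replicates of each arm lay close to each other. EGFP+ cells of UV mice stood at -4.72 ± 0.79 against tdTomato+ cells (adjusted p = 0.0047) and over all mice at -2.36 ± 0.56 (adjusted p = 0.0133). Neither count model called Cma1 in tdTomato+ cells for UV (edgeR adjusted p = 0.251, DESeq2 0.196), with UV (0.122 and 0.124) or over all mice (1.000 and 0.267). The limma call of UV was lost in 7 of 8 fits without 1 library, most of which called few or none of all genes in this comparison. Cma1 spans 55941451 to 55944675 on the minus strand of chromosome 14 in mm10. Its promoter is shown beside that of Chil3 because both genes were at 0 without UV in tdTomato+ cells and were called with UV. These are the 250 bases before its start in RefSeq (GRCm38.p6, chr14:55944676-55944925, minus strand, 5′ to 3′), in which none of the letters searched were found.

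Cma1 promoter: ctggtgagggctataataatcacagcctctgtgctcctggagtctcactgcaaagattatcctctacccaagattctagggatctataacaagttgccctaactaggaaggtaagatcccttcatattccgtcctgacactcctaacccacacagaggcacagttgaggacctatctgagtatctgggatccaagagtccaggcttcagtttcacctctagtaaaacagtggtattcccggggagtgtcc

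Mcpt4, a chymase, Tpsb2, a tryptase, and Fcer1a, the IgE-binding chain of the high-affinity receptor, had 0 reads in all 8 libraries. Cpa3, the mast cell carboxypeptidase, had 7 reads, all in no UV tdTomato replicate 2. Ms4a2, the beta chain of the IgE receptor, had 5 reads in all libraries, 3 of them in UV tdTomato replicate 2. Hdc, which makes histamine, had 44.0 normalized reads in UV tdTomato replicate 1 and 0 in replicate 2, 2.93 and 0 in tdTomato+ cells without UV, and 0.951 in 1 EGFP library. By reads the ratio of UV to no UV in tdTomato+ cells was 12.7 for Hdc (4.10 to 63.8, counting error only), all of it from 1 library. The Cma1 signal with UV thus stood beside 0 reads for Mcpt4, Tpsb2, Fcer1a and Cpa3 in the same libraries.

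Short sequence motifs were counted in the promoters of the members. RefSeq promoters were matched for 32 of the 39 genes, and each motif was searched on both strands in the 250 bases before the start. The PU.1 core AGGAAGT was found in 10 of the 32 promoters (31.25%) and in 8.80% of the 27025 genes with a promoter. Its longer form GAGGAAGT, which overlaps it, was found in 3 (9.375%) and in 2.79%. TTGCNNAA, a form bound by C/EBP factors, was found in 8 (25.0%) and in 10.8% of all genes. The GATA core AGATAA was also found in 8 (25.0%) and in 11.4% of all genes. For 17 of the 32 members, Camp among them, a window overlapped the GENCODE M21 gene model, so that part of it can be transcribed sequence. Of the 4 genes called with UV in tdTomato+ cells, Chil3 held the PU.1 and GATA letters, the windows of Camp and Cma1 held none of those searched, and C1qa was not matched. A match is a description of letters and not a binding site.

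The roles can be compared over the 4 groups by the summed level of their genes. In tdTomato+ cells the complement and scavenging genes went from 2411 and 104 without UV to 6466 and 1468 with UV. Lyz2 made up most of that sum except in no UV tdTomato replicate 2, where it had 0 reads. The sensing receptors went from 613 and 51.4 to 2991 and 625, mainly Cd14, the enzymes from 21.5 and 31.4 to 741 and 252, and the genes shared by myeloid cells or leukocytes from 844 and 428 to 2014 and 455. The neutrophil genes went from 1608 and 829.3 to 1761 and 1541, which is mainly Lcn2, and the mast cell genes from 2.93 and 11.4 to 82.5 and 34.3. The mast cell sum was mainly Cma1 and Hdc with UV in replicate 1 and Cma1 in replicate 2, whereas its 11.4 in no UV replicate 2 was Cpa3 and Ms4a2, and Cpa3 had 7 reads without UV and 0 with UV in tdTomato+ cells. The UV and no UV libraries overlapped for the complement, shared and neutrophil sums, and did not overlap for the sensing receptors, the enzymes and the mast cell genes, with UV replicate 2 close to no UV replicate 1 for the sensing receptors.

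**Figure D5:**
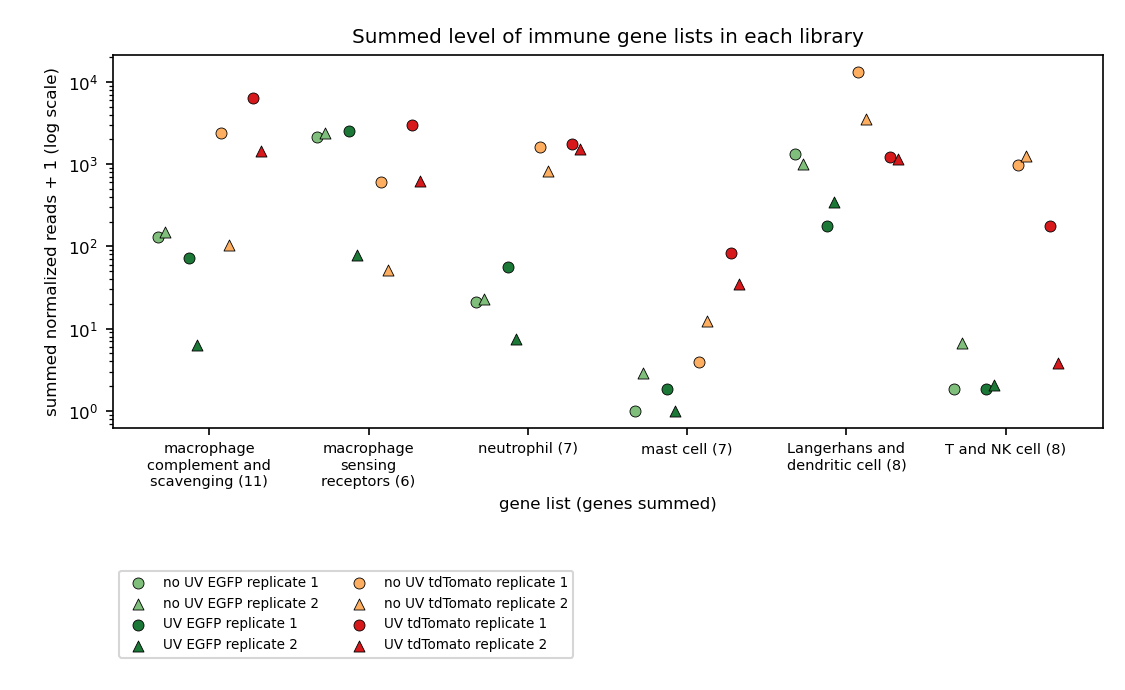
Summed normalized reads + 1 (log axis) of 4 groups of the described genes and of Langerhans and dendritic cell and T and NK cell markers, with 1 point per library; colours are groups, circles replicate 1 and triangles replicate 2. In tdTomato+ cells (orange without UV, red with UV) the mast cell sum is higher with UV in both replicates, while the Langerhans and dendritic cell and the T and NK cell sums are lower with UV in both.

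Replicates differed widely within the tdTomato+ groups. The 30 genes with a mean of at least 10 normalized reads in some group or a call were compared. UV tdTomato replicate 1 was above replicate 2 for 27 of these 30, and no UV tdTomato replicate 1 was above replicate 2 for 20. Of the 30, 26 had their highest tdTomato value in UV tdTomato replicate 1, which held a median of 62.9% of the summed tdTomato values. No UV tdTomato replicate 2 was the lowest tdTomato library, ties included, for 23 of the 30. Libraries did not overlap between UV and no UV in tdTomato+ cells for 13 members that were higher with UV (21.6% of all genes tested) and for 1 that was lower (24.5%). For EGFP against tdTomato over all mice they did not overlap for 9 members that were lower in EGFP+ cells (18.0% of all genes tested) and for 0 that were higher (9.8%). With UV this held for 28 that were lower (33.7%) and 0 that were higher (18.9%). Without UV it held for 10 that were lower (34.2%) and 2 that were higher (23.7%), Mpeg1 and Cd14. In EGFP+ cells 4 members, Cd68, Mpeg1, Lyz2 and Ltf, were lower with UV without overlap (20.7%) and 0 were higher (12.7%).

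Markers of other cells in the tdTomato+ population moved between the UV arms as well. Of 7 tested Langerhans and dendritic cell markers 1 was lower with UV: Cd207, the langerin of Langerhans cells, had 1237 and 271 normalized reads without UV and 0 and 0 with UV. The summed level of these markers was 13193 and 3557 without UV and 1210 and 1149 with UV. They were present in EGFP+ cells as well, at 1315 and 1006 without UV and 179 and 347 with UV. T and NK cell markers in tdTomato+ cells went from 964 and 1253 to 175 and 2.78, and 0 of 7 tested passed limma, with 5 at an unadjusted p under 0.05. Endothelial markers in tdTomato+ cells had 71.4 and 44.2 without UV and 591 and 76.0 with UV, highest in the same library as most myeloid genes, with 0 of 5 called. Melanocyte markers were called higher with UV in tdTomato+ cells for 6 of 8, and keratinocyte markers lower for 2 of 8. Of all genes tested 0.349% were higher and 0.21% lower there, so 0 calls in a list of 5 or 7 genes is near that share. The summed keratinocyte level was 314751 and 387708 without UV and 304665 and 262288 with UV. The part of these cell types in the UV values of the myeloid genes was not tested.

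Other genes of the same cells were counted from lists that do not hold the members. Of 20 other macrophage and monocyte genes 18 were tested, and 9 were lower and 1 higher in EGFP+ cells over all mice. For these counts, 19.2% of all genes tested were lower and 9.66% higher. Lilrb4a, an inhibitory receptor of myeloid cells, had 41.1 and 8.56 normalized reads in tdTomato+ cells without UV and 421 and 142 with UV, and 0 in EGFP+ cells. Ctss, the lysosomal protease cathepsin S, had 320 and 17.1 without UV and 1349 and 280 with UV. The higher gene was Gpnmb, a glycoprotein that melanocytes also make. With UV in tdTomato+ cells Gpnmb was also the 1 gene of this list that was called higher. Of 16 other neutrophil genes listed, 15 were found and 12 were tested, and 7 were lower and 0 higher in EGFP+ cells, among them Il1r2, a decoy receptor for interleukin-1, and S100a9, a calcium-binding protein of neutrophils and keratinocytes. With UV in tdTomato+ cells 0 of the 12 passed limma. Trem1, an activating receptor of neutrophils and monocytes, had 0 and 1.43 without UV and 57.7 and 25.0 with UV (adjusted p = 0.0815), and Il1r2 had 2394 and 1426 without UV and 81.6 and 207 with UV (adjusted p = 0.157). Of 13 other mast cell and basophil genes 10 were tested, and 1 was lower in EGFP+ cells, Rab27b, a vesicle transport gene. That is 10.0% of those tested, below the 19.2% of all genes tested. With UV in tdTomato+ cells 0 of the 10 passed.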

How the data were processed

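The authors deposited DESeq2-normalized reads per gene, a signal obtained by dividing each count by 1 size factor per library (0.701 to 1.20). Per the submitters' processing notes the tools were TopHat2 2.0.12, Cufflinks 2.2.1, DESeq2 1.14.1 and FastQC with the mm10 build. For the read counter and the annotation, nothing is given in the sources used here. Whole reads were recovered from the deposited values (100% of 195368 values within 0.01 of a whole number). The library preparation named in the labels' protocols does not keep strand. The replicates are separate mice, so n is 2 per group.

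The main test was limma 3.58.1 (R 4.3.3) on log2(value + 1), with 4 group means over all 8 libraries, a trended variance, 4 residual degrees of freedom and 6 comparisons. Genes needed a mean of at least 1 in some group, which left 18070 of 24421, and p-values were adjusted over all of them by Benjamini and Hochberg. edgeR 4.0.16 and DESeq2 1.42.0 were run on the recovered reads. The limma, edgeR and DESeq2 fits were tried on simulated counts for UV in tdTomato+ cells only. Changes were planted only in genes of moderate or high level, so changes of genes at 0 in a whole group were not covered. Where a group had 0 reads, a fold is a bound computed from 3 reads over that group, and ratios have a 95% exact interval; both cover counting error only. EGFP and tdTomato libraries of 1 mouse pair by the labels (deviations from group means correlated at 0.0873 without UV and 0.0562 with UV), and the pairing was fitted as a block. Members and gene lists were chosen with earlier results of these data known. A value in every library was given for the 30 genes that averaged at least 10 in some group or had a call, and up to 4 genes with the smallest p were eligible for naming from each other list. The authors' deposited table of adjusted p-values and log2 fold changes of EGFP+ against tdTomato+ cells was used for description only, and the score that the authors deposited there, a Wald statistic, was not used.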

Additional observations from a re-analysis of the deposited data

Results flagged for a closer look

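Among 32 sets of 4 libraries (a member in EGFP+ or in tdTomato+ cells, mean of at least 10 normalized reads), 3 held a library far from the other 3, by the gap to its nearest neighbour as a share of the whole range, both on log2(normalized reads + 1) (above Dixon's critical value). Chance gives this in about 5% of sets. Cd14 in EGFP+ cells was low in UV EGFP replicate 2, with a gap share of 0.952 (0.840 on normalized reads without the log). Clec7a in tdTomato+ cells was low in no UV tdTomato replicate 2, with a gap share of 0.894; on normalized reads without the log it was 0.619, below the critical value. Csf3r in tdTomato+ cells was low in no UV tdTomato replicate 1, with a gap share of 0.885 (0.835 without the log). These sets join mice with and without UV.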

How the results depend on the processing

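All counts are members called by limma unless a tool is named or all genes are named, and the cause of each change below was not tested. Fits without 1 library or without mouse 1 leave 1 library in a group. In many of them the calls of members and of all genes both changed. Over all mice the 20 calls became 13 with a pseudocount of 0.1 and 12 with quantile normalization. All genes called went from 1746 higher and 3471 lower to 1632 and 3199 with that pseudocount. Leaving out 1 library or mouse 1 lowered the member count. Without UV the 4 calls became 2 with a pseudocount of 0.1, 2 with no filter and 2 when rescaled without the 20 most abundant genes. They became 8 with edgeR (1 higher, 7 lower) and 9 with DESeq2 (all lower). All genes called were 1206 higher and 2262 lower in the main fit. They were 1084 and 1892 with that pseudocount, 1154 and 2172 with no filter and 1780 and 1796 when rescaled. With edgeR 1248 were higher and 1981 lower, and with DESeq2 1528 and 2540. Leaving out 1 library moved the member count both ways. With UV the 17 calls became 11 when the fit held only the libraries compared. All genes called went there from 909 higher and 2331 lower to 550 and 1442. Leaving out 1 library or mouse 1 lowered or kept the member count. For UV in EGFP+ cells a call arose only without UV EGFP replicate 1 or without mouse 1, where more of all genes were called too. For UV in tdTomato+ cells the 4 calls became 0 with a pseudocount of 0.1, 2 with the stricter filter (at least 5 in 2 libraries), 1 with edgeR, 1 with only the libraries compared and 7 without mouse 1, and 0 to 10 when 1 library was left out. For the difference of the UV changes the 0 calls became 1 with edgeR, 1 with DESeq2 and 6 without mouse 1, and 0 to 8 when 1 library was left out.

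With mouse as a replicate block the counts were 18 for all mice together, 4 in mice without UV (1 higher, Cd14, and 3 lower, with the call of Ptprc lost), 17 in mice with UV, and 0 for the difference of the UV changes. Of all genes, 1723 were then higher and 3498 lower over all mice, 1169 and 2119 without UV, and 905 and 2285 with UV. For the difference of the UV changes 0 were higher and 1 lower. In the UV comparisons the replicate numbers belong to different mice and share only a number. Their deviations correlated at 0.0549 in EGFP+ and 0.0759 in tdTomato+ cells. In these comparisons a replicate block gave 1 call in tdTomato+ cells, Chil3, and 0 in EGFP+ cells. Of all genes it called 45 higher and 25 lower in tdTomato+ cells, and 0 and 2 in EGFP+ cells.

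The values that took the other sign were small or rested on 1 library. With 1 library left out at a time, the UV change in tdTomato+ cells ranged from -0.12 to 10.78 for Lyz2 (lowest without no UV tdTomato replicate 2) and from -0.68 to 1.46 for Fcer1g (lowest without UV tdTomato replicate 1). For Ptprc it became -0.12 with edgeR, -0.11 with DESeq2 and -0.85 without UV tdTomato replicate 1, in a range from -1.09 (without no UV tdTomato replicate 2) to 1.15. The difference of Cd14 with UV became 0.17 with edgeR, 0.12 with DESeq2 and 0.19 without UV tdTomato replicate 1, in a range from -3.48 to 1.52 (without UV EGFP replicate 2). The UV change of Cd14 in EGFP+ cells ranged from -4.84 to 0.15 (without UV EGFP replicate 2), and the difference of Cd68 without UV from -1.27 to 0.046 (without no UV tdTomato replicate 1).

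Scaling moved the median of all genes in EGFP+ against tdTomato+ cells over all mice by 0.45 with quantile normalization and by 0.23 when rescaled. All genes tested split into 1746 higher and 3471 lower, against 2857 and 2672 with quantile normalization and 2634 and 2877 when rescaled. With 2 libraries a group, genes at 0 in whole groups have little spread on the log scale, and the calls of C1qa, Camp and Cma1 for UV in tdTomato+ cells did not pass edgeR. At these depths 0 reads do not show that a gene is absent.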

Other observations

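The authors' deposited table of EGFP+ against tdTomato+ cells called 20 of the 39 genes lower and 0 higher at an adjusted p under 0.05, where 22.5% of the 15469 genes with an adjusted p in the authors' deposited table were lower and 12.6% higher. Of the 20 called lower by limma here, 16 were also called lower in the authors' deposited table, 3 have no adjusted p there, and 1, Chil3, has an adjusted p of 0.0877 there. Another 4 genes are lower in the authors' deposited table and were not called here. The table gives no p-value for 5 genes that have reads: C1qa, Cd14, Cd163, Clec4e and Hdc.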
